A study of Homo sapiens with 12 samples.

Results

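The genes described here are the parts of Integrator that carry and hold its phosphatase, together with the phosphatase itself: INTS2, INTS5, INTS6, INTS6L and INTS8, the PP2A catalytic subunits PPP2CA and PPP2CB, and the PP2A scaffold subunits PPP2R1A and PPP2R1B. They were taken by gene symbol from the deposited tables, which gave 9 of 60583 genes. TT-seq, which captures and sequences RNA made during a short pulse of a thiol-bearing uridine, was applied to the osteosarcoma line U2OS. Cells received siCtrl, a control siRNA, or siINTS11, which targets the RNA-cutting subunit of Integrator, and all were taken at 48 h. Parental U2OS cells carried no other change named by the labels. U2OS-AsiSI cells also expressed AsiSI-ER, a DNA-cutting enzyme fused to a hormone-binding domain, and both of their groups had 1 h of OHT, the ligand that moves the fusion into the nucleus. The 4 groups held 3 libraries each. No U2OS-AsiSI cells without OHT and no U2OS cells with OHT were among them, so line, enzyme and OHT cannot be told apart. The labels do not say whether replicates were separate cultures, so p-values measure the spread between these libraries.

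Integrator binds RNA polymerase II (Pol II) soon after transcription begins and carries an RNA endonuclease, which cuts the new transcript, and a phosphatase, PP2A, which removes phosphates from the polymerase tail and from SPT5 and so acts against the kinase CDK9. Free PP2A is a trimer of a scaffold, a catalytic and a regulatory subunit, and in Integrator the scaffold and catalytic subunits are held by Integrator subunits in place of the usual regulatory one. INTS8 is needed to bring in the PP2A core, INTS6 or its paralogue INTS6L sits at the phosphatase, and INTS2 and INTS5 belong to the body that holds this arm to the rest of the complex.

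Promoter windows are shown for the scaffold paralogues, whose shares of the pair are compared below, and for 2 Integrator subunits. With siINTS11, INTS6L was called higher in both lines and INTS2 in U2OS alone. The windows set the letters before the start site beside those values. Each window holds 212 bases, from 250 to 39 bases before the first RefSeq start site listed (GRCh38.p14), 5′ to 3′ on the strand of the gene, and reaches no annotated exon of that gene. Capitals mark matches to CCAAT boxes (CCAAT, or ATTGG on the other strand), the GC box GGGCGG and the octamer ATGCAAAT.
PPP2R1A, chr19:52189802-52190013, plus strand: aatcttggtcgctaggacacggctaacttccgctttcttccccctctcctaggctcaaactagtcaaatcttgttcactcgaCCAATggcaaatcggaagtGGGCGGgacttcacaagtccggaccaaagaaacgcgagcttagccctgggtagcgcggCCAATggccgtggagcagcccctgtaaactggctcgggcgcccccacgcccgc
PPP2R1B, chr11:111766428-111766639, minus strand: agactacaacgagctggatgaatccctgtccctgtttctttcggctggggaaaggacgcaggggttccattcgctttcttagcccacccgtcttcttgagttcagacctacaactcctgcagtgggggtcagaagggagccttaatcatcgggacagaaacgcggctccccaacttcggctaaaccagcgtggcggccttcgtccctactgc
INTS6L, chrX:135520410-135520621, plus strand: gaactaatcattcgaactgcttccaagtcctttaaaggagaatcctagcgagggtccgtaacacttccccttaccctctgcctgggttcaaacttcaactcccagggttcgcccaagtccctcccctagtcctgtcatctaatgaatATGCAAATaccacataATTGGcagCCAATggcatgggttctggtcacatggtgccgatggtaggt
INTS2, chr17:61928021-61928232, minus strand: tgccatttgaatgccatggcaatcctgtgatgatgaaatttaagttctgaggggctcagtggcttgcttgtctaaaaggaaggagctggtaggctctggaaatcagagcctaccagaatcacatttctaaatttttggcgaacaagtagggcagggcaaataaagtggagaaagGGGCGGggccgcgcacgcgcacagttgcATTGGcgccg
The PPP2R1A window held 2 CCAAT boxes, at -168 and -91 from the start site, and a GC box at -149. The PPP2R1B window held no match to any of the 6 motifs searched. The INTS6L window held the octamer at -103 with an inverted CCAAT box at -87 and a CCAAT box at -79, and the INTS2 window held a GC box at -76 and an inverted CCAAT box at -48. Among 35116 windows of the same length and place, on either strand, 29.03% held a CCAAT box, 37.7% the GC box and 1.44% the octamer, while 5.15% held the E-box CACGTG, 1.22% the CRE TGACGTCA and 7.91% the TATA box TATAAA, which none of the 4 windows held. GC content was 59.0% in PPP2R1A, 56.6% in PPP2R1B, 50.5% in INTS2 and 49.5% in INTS6L, against a median of 57.5% over all windows. The motifs were picked after the sequences had been read, and a match is a description of letters only.

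Reads were counted over the whole span of a gene, introns included, and the tables gave hg38 coordinates. INTS2 (ENSG00000108506) lay on the minus strand of chromosome 17 from 61865367 to 61928016, INTS5 (ENSG00000185085) on the minus strand of chromosome 11 from 62646848 to 62653302, and INTS6 (ENSG00000102786) on the minus strand of chromosome 13 from 51354077 to 51454264. INTS6L (ENSG00000165359) lay on the plus strand of chromosome X from 135520643 to 135582510, and INTS8 (ENSG00000164941) on the plus strand of chromosome 8 from 94813311 to 94881746. The catalytic genes were PPP2CA (ENSG00000113575), on the minus strand of chromosome 5 from 134194332 to 134226073, and PPP2CB (ENSG00000104695), on the minus strand of chromosome 8 from 30774457 to 30814314. The scaffold genes were PPP2R1A (ENSG00000105568), on the plus strand of chromosome 19 from 52190048 to 52229518, and PPP2R1B (ENSG00000137713), on the minus strand of chromosome 11 from 111726908 to 111766389. Annotated exons (GENCODE 29) took 50.9% of the INTS5 span and between 11.3% and 25.5% of the span of the other 7 genes with reads, so most of the span of those 7 was not exonic. The reads were not split into exon and intron here.

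Library totals ran from 20704611 to 38065726 reads. Levels are given as CPM, the reads of a gene per 1000000 reads of a library, after TMM scaling over the 12 libraries. INTS11 itself gave 9.69 ± 0.700 CPM (SD, n = 3) with siCtrl and 7.37 ± 0.426 with siINTS11 in U2OS, and 10.2 ± 0.736 and 9.28 ± 0.242 in U2OS-AsiSI. Its nascent level was lower with siINTS11 in U2OS (log2 fold change -0.42, SE 0.087, edgeR adjusted p = 6.08e-05). In U2OS-AsiSI the difference of -0.13 (SE 0.083) missed the threshold (edgeR adjusted p = 0.172) and became 0.06 with library totals alone. A difference between the lines in this effect was not called (0.25, edgeR adjusted p = 0.235). These values are of newly made RNA, and the mature RNA and protein of INTS11 are not in these data, so the depth of the knockdown was not measured. Of the markers of the osteosarcoma line, VIM, COL1A1 and RUNX2 were read in every library, whereas COL1A2 had 2 to 13 reads. The epithelial gene KRT8 had 1468 to 2186 reads and EPCAM 108 to 201, and the blood and liver genes PTPRC, CD3E and ALB had at most 7.

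PPP2CA, the major catalytic paralogue of PP2A, was listed at 0 reads in all 12 libraries, and no level or fold change can be given for it. Its 31742 bases are covered in full on its own strand by the annotated genes AC104109.3 and AC104109.4. Of 3102 genes of at least 1000 bases covered in this way (fewer than 25 bases free), 98.3% had 0 reads in every library and none had more than 5 in any. Genes covered only when strand is ignored behaved otherwise, with 21.5% of 5506 at 0. Transcription of PPP2CA was thus not measured by these counts.

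**Figure D1:**
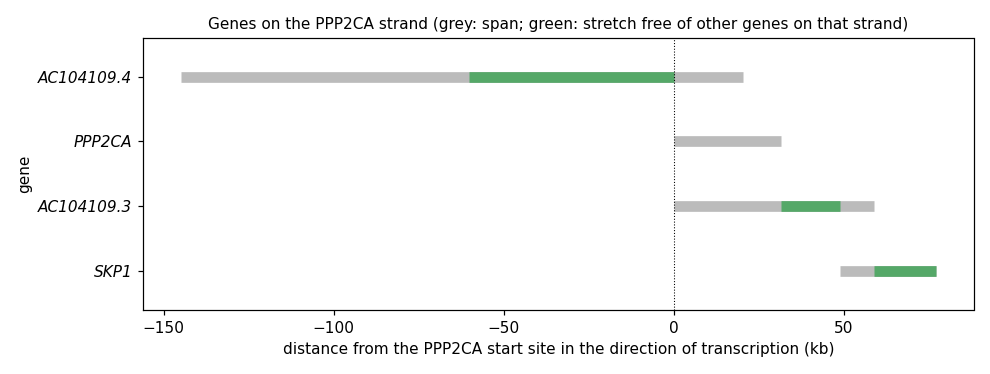
Genes on the strand of PPP2CA, placed by distance in kb from the PPP2CA start site in the direction of transcription (x axis), one gene per row (y axis). Grey bars are annotated spans and green bars the stretch where no other gene on that strand lies. PPP2CA has no green stretch, AC104109.3 has 17293 free bases after its end and AC104109.4 has 60276 free bases before its start.

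The flanks of PPP2CA did carry reads, and the genes they are counted to were singled out after their values were seen. AC104109.3 was countable from 134177039 to 134194331, directly after the PPP2CA end, where it gave 14.9, 14.3 and 14.8 CPM with siCtrl and 11.1, 11.6 and 11.98 with siINTS11 in U2OS. In U2OS-AsiSI it gave 11.5, 11.5 and 11.8 CPM with siCtrl and 8.77, 7.001 and 8.32 with siINTS11. It was lower with siINTS11 in both lines (log2 fold change -0.37, SE 0.072, edgeR adjusted p = 1.73e-05 in U2OS and -0.51, SE 0.086, 4.68e-06 in U2OS-AsiSI), with no overlap between the groups of a line. AC104109.4, countable before the PPP2CA start from 134226074 to 134286349, went the other way, from 11 to 16 reads per siCtrl library to 22 to 38 per siINTS11 library (log2 fold change 1.19, SE 0.259, edgeR adjusted p = 0.000100 in U2OS and 1.28, SE 0.259, 6.72e-05 in U2OS-AsiSI). SKP1, a subunit of SCF ubiquitin ligases, starts within the span of AC104109.3 and was countable from 134148935 to 134167169. Its value was higher with siINTS11 in U2OS (log2 fold change 0.20, SE 0.045, edgeR adjusted p = 0.000230) and gave 0.10 (SE 0.050, adjusted p = 0.0808) in U2OS-AsiSI. None of these 3 values measures the PPP2CA transcript.

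Levels between genes were compared as CPM per kb of countable span, the bases of a gene free of other genes on its strand. Under siCtrl in U2OS the scaffold PPP2R1A stood highest at 4.37 ± 0.181 CPM per kb (SD, n = 3), followed by its paralogue PPP2R1B at 2.75 ± 0.0556 and INTS5 at 2.73, which did not differ beyond their spread. PPP2CB gave 1.997 CPM per kb, INTS6 1.56 and INTS2 1.22, and INTS8 and INTS6L came last at 0.695 and 0.620. PPP2R1A stood above INTS8, the subunit that brings in the PP2A core, in all 4 groups. INTS5 is the least certain of these levels, because 3609 of its 6455 bases are shared with AP001458.2 and its value rests on 212 to 366 reads. In U2OS-AsiSI the order under siCtrl was the same except that INTS5, at 3.14, stood above PPP2R1B, at 2.703. With siINTS11 in U2OS, INTS5 at 3.53 ± 0.2998 stayed below PPP2R1A at 4.13 ± 0.0951, and PPP2R1B at 2.12 ± 0.0458 above PPP2CB at 2.01 ± 0.0451. With siINTS11 in U2OS-AsiSI, INTS5 at 4.32 ± 0.225 CPM per kb lay within its spread of PPP2R1A at 4.24 ± 0.0150, PPP2CB at 2.10 ± 0.0808 close to PPP2R1B at 1.996 ± 0.103, and INTS6L at 0.685 ± 0.0273 above INTS8 at 0.526 ± 0.0234.

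**Figure D2:**
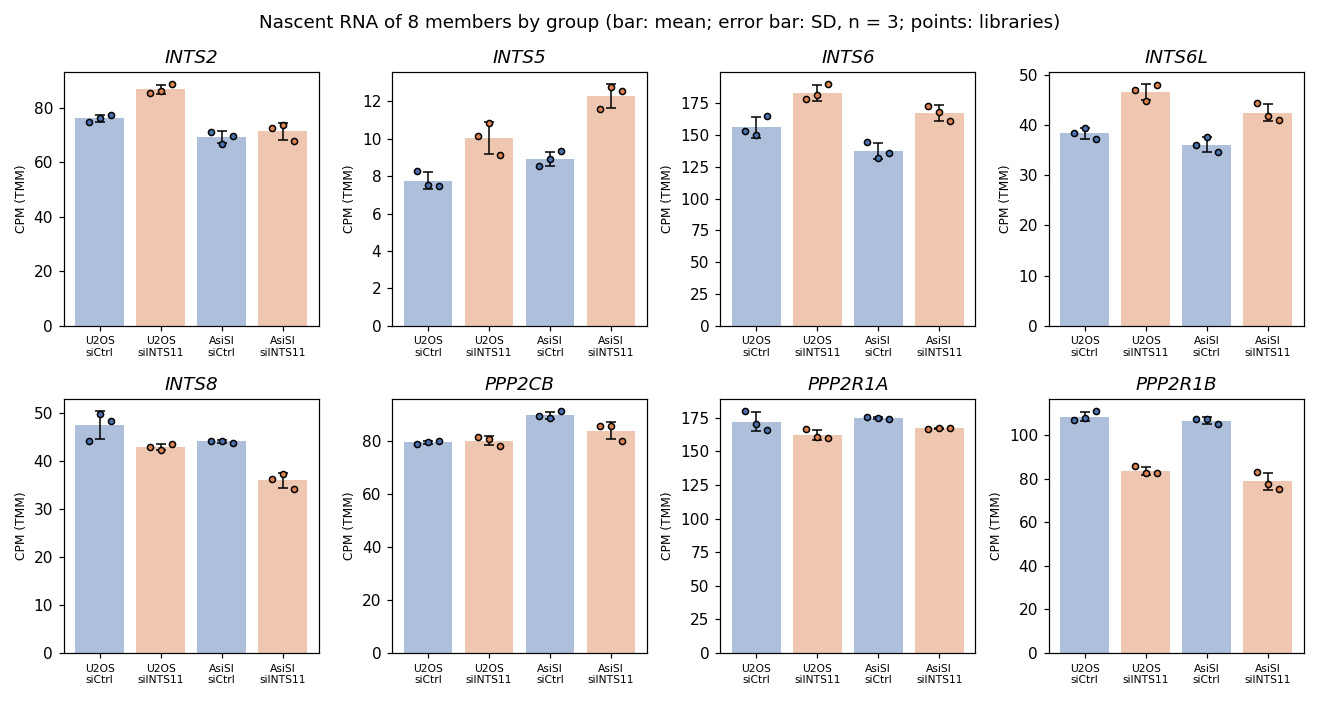
Nascent RNA of the 8 genes with reads, one panel per gene, in CPM after TMM scaling (y axis, from 0) for the 4 groups (x axis). Bars are means, error bars SD (n = 3) and points single libraries. PPP2R1B is lower with siINTS11 in both lines, INTS5, INTS6 and INTS6L are higher, and PPP2CB differs little.

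After siINTS11 the members split by gene and did not move as one group. In U2OS-AsiSI 3 of the 8 tested members were called higher and 2 lower (edgeR quasi-likelihood test, adjusted p under 0.05 over all genes tested), where 35.4% of 20441 genes were called higher and 32.6% lower. In U2OS 4 members were called higher and 3 lower, against 34.5% and 32.4% of 20687 genes. Calls in either direction were thus common among all genes, and the count of members called is near what the background gives. The median log2 fold change of the 8 was -0.01 in U2OS-AsiSI, beside 0.03 over all genes, and 0.07 in U2OS, beside 0.02. With library totals alone the median of all genes moved to 0.22 in both lines. Of the calls, 72.4% in U2OS-AsiSI and 74.3% in U2OS were higher (52.1% and 51.6% with TMM). That scaling called 6 members higher and 1 lower in each line. Over all genes it called 10550 of 20441 higher and 4024 lower in U2OS-AsiSI, and 10968 of 20687 higher and 3799 lower in U2OS. Each change below is relative to the TMM scale. The sign of the TMM estimate was the same in both lines for all 8. In bulk RNA, fewer cells transcribing a gene and less RNA per cell cannot be told apart.

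The Integrator subunits of the phosphatase arm divided. INTS6, which sits at the phosphatase, gave 153, 150.0 and 165 CPM with siCtrl and 178, 182 and 190.3 with siINTS11 in U2OS. The U2OS-AsiSI values were 144, 132 and 136 CPM with siCtrl and 173, 168 and 161 with siINTS11. All siINTS11 libraries lay above all siCtrl libraries of their line. INTS6 rose by 0.20 on the log2 scale in U2OS (SE 0.041, edgeR adjusted p = 3.31e-05) and by 0.29 in U2OS-AsiSI (SE 0.047, edgeR adjusted p = 2.82e-06).

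INTS6L, the X-linked paralogue that can take the place of INTS6, moved by a like amount. It gave 38.3, 39.5 and 37.2 CPM with siCtrl and 46.9, 44.8 and 47.9 with siINTS11 in U2OS. U2OS-AsiSI cells gave 35.9, 37.6 and 34.6 CPM with siCtrl and 44.3, 41.8 and 41.1 with siINTS11. The groups did not overlap in either line. INTS6L rose by 0.25 on the log2 scale in U2OS (SE 0.048, edgeR adjusted p = 1.55e-05) and by 0.24 in U2OS-AsiSI (SE 0.053, edgeR adjusted p = 0.000214).

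INTS8, which brings in the PP2A core, fell in both lines. It gave 44.3, 49.96 and 48.4 CPM with siCtrl and 43.0, 42.4 and 43.7 with siINTS11 in U2OS. Its U2OS-AsiSI levels were 44.3, 44.3 and 43.9 CPM with siCtrl and 36.3, 37.4 and 34.3 with siINTS11. The gap was wide against the spread in U2OS-AsiSI and narrow in U2OS, where the first siCtrl library lay just above the highest siINTS11 library. INTS8 fell by 0.18 on the log2 scale in U2OS (SE 0.048, edgeR adjusted p = 0.00132) and by 0.29 in U2OS-AsiSI (SE 0.051, edgeR adjusted p = 1.04e-05). With library totals alone it was 0.02 (edgeR adjusted p = 0.691) in U2OS and -0.10 (adjusted p = 0.0848) in U2OS-AsiSI, so its direction in U2OS depends on the scaling.

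INTS5 had the largest rise among the members in both lines, on few reads. It gave 8.27, 7.55 and 7.48 CPM with siCtrl and 10.2, 10.8 and 9.13 with siINTS11 in U2OS. For U2OS-AsiSI the libraries gave 8.55, 8.93 and 9.32 CPM with siCtrl and 11.6, 12.8 and 12.5 with siINTS11. The groups did not overlap in either line. INTS5 was 1.27-fold higher in U2OS (log2 0.34, SE 0.086, edgeR adjusted p = 0.000610) and 1.38-fold higher in U2OS-AsiSI (log2 0.46, SE 0.080, edgeR adjusted p = 7.43e-06). The part counted is the stretch free of AP001458.2, so reads from the shared 3609 bases are not in these values.

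INTS2, one of the large subunits of the body, was called in 1 line. It gave 74.7, 76.3 and 77.4 CPM with siCtrl and 85.5, 86.1 and 88.7 with siINTS11 in U2OS, where it rose by 0.16 on the log2 scale (SE 0.040, edgeR adjusted p = 0.000583). In U2OS-AsiSI it gave 71.2, 66.9 and 69.6 CPM with siCtrl and 72.8, 73.7 and 67.9 with siINTS11. There the groups overlapped, and the log2 fold change of 0.05 (SE 0.048) missed the threshold (edgeR adjusted p = 0.3603), although it was called at 0.24 with library totals alone.

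Of the PP2A core, PPP2R1B, the less abundant scaffold, gave 107, 108 and 111 CPM with siCtrl and 85.8, 82.4 and 82.8 with siINTS11 in U2OS. The U2OS-AsiSI values were 108, 108 and 105 CPM with siCtrl and 83.3, 77.6 and 75.5 with siINTS11. Every siINTS11 library lay far below every siCtrl library. PPP2R1B fell by 0.40 on the log2 scale in U2OS (SE 0.039, edgeR adjusted p = 4.96e-12) and by 0.43 in U2OS-AsiSI (SE 0.047, edgeR adjusted p = 2.05e-09), or 1.35-fold in the latter. It was called lower in both lines under each alternative run, library totals alone included.

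PPP2R1A, the major scaffold, was called lower in U2OS alone. It gave 179.9, 170.2 and 166 CPM with siCtrl and 167, 160.4 and 160.3 with siINTS11 in U2OS, where the groups overlapped. U2OS-AsiSI cells gave 176, 175 and 174 CPM with siCtrl and 166, 167 and 168 with siINTS11, without overlap. It fell by 0.11 on the log2 scale in U2OS (SE 0.040, edgeR adjusted p = 0.0144), and its value was -0.06 (SE 0.043, adjusted p = 0.210) in U2OS-AsiSI. The U2OS call was lost without siCtrl replicate 1 (-0.07, edgeR adjusted p = 0.131), without siINTS11 replicate 2 (-0.10, adjusted p = 0.0615) and with a filter at a mean of 50 reads (-0.07, adjusted p = 0.108), and with library totals alone the estimate turned to 0.09 in U2OS and 0.13 in U2OS-AsiSI. PPP2R1A and INTS5 were also the members densest in reads, at 0.127 and 0.101 per countable base in an average library. Among 837 genes of that density (0.1 to 0.15), counts rose with the library total at a median slope of 0.87 on log scales. Among 13073 genes below 0.05 the slope was 1.07. So CPM of these 2 genes may run high in libraries of low total, and their differences may be overstated or understated. The U2OS-AsiSI siINTS11 libraries had the lowest totals, 20704611 to 26579035 reads. The size of such a shift was not tested.

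PPP2CB, the catalytic paralogue that could be counted, gave 79.0, 79.6 and 80.1 CPM with siCtrl and 81.5, 80.9 and 78.1 with siINTS11 in U2OS. Its U2OS-AsiSI levels were 89.4, 88.5 and 91.3 CPM with siCtrl and 85.8, 85.5 and 80.1 with siINTS11. The groups overlapped in U2OS and did not in U2OS-AsiSI. Values of -0.02 on the log2 scale (SE 0.040, edgeR adjusted p = 0.702) in U2OS and -0.09 (SE 0.046, adjusted p = 0.0724) in U2OS-AsiSI missed the threshold. In the latter it passed the threshold as lower with median-of-ratios scaling (-0.11, edgeR adjusted p = 0.0450), with DESeq2 (-0.13, DESeq2 adjusted p = 0.0404) and without siINTS11 replicate 1 (-0.11, edgeR adjusted p = 0.0477), and with library totals alone it was higher, at 0.10 in U2OS-AsiSI and 0.18 in U2OS.

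**Figure D3:**
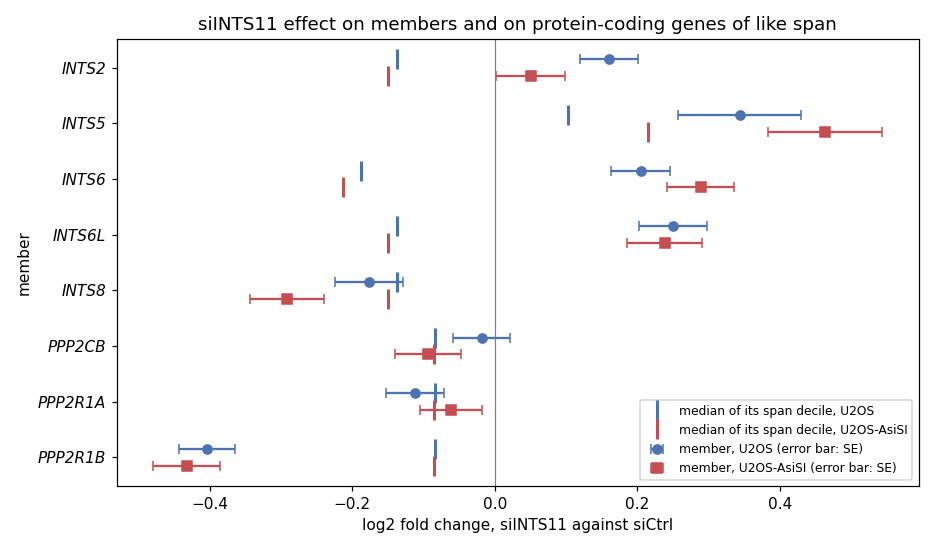
Log2 fold change of siINTS11 against siCtrl (x axis) for each member (y axis) in U2OS (blue circles) and U2OS-AsiSI (red squares), with SE bars, and, as vertical ticks in the same colours, the median over protein-coding genes in the span decile of that gene. INTS2, INTS5, INTS6 and INTS6L lie to the right of their ticks in both lines, and PPP2R1B lies to the left of its ticks.

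Because siINTS11 effects varied with gene span, each member was set beside the protein-coding genes of its span decile. In U2OS-AsiSI the decile of INTS2, INTS6L and INTS8 (54.1 to 78.1 kb) had a median log2 fold change of -0.15, that of INTS6 -0.21, that of PPP2CB, PPP2R1A and PPP2R1B -0.09, and that of INTS5, the decile of the shortest genes, 0.21. In U2OS the medians were -0.14, -0.19, -0.08 and 0.10. INTS6, at 100.188 kb, rose although the median of its decile was below 0, and PPP2R1B fell by more than the decile it shares with PPP2R1A and PPP2CB. The INTS8 value in U2OS, -0.18, was close to its decile median. These are descriptions of single genes beside a median and no test was made of them.

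The balance within paralogue pairs does not depend on library scaling, but it can depend on the library total where 2 genes differ in read density. PPP2R1A had 0.127 reads per countable base and PPP2R1B 0.071, and genes of those densities had median slopes of 0.87 and 0.99. The part of this in the shares was not tested. PPP2R1B made up 37.2%, 38.7% and 40.1% of the scaffold pair (reads per kb) with siCtrl and 33.9%, 33.9% and 34.1% with siINTS11 in U2OS. In U2OS-AsiSI its share was 38.0%, 38.1% and 37.6% with siCtrl and 33.3%, 31.7% and 31.0% with siINTS11. The mean share fell by 4.70 percentage points in U2OS and fell by 5.85 in U2OS-AsiSI, with no overlap in either line (exact permutation test, two-sided, p = 0.1 in each line, the smallest that 3 against 3 libraries can give, and 0.2 after Benjamini-Hochberg adjustment over 4 tests). INTS6L made up 28.5% ± 1.59 (SD, n = 3) of the INTS6 pair with siCtrl and 29.1% ± 0.693 with siINTS11 in U2OS (exact permutation p = 0.6), and 29.8% ± 1.52 and 29.1% ± 0.319 in U2OS-AsiSI (exact permutation p = 0.8, adjusted 0.8 for both). The groups overlapped in both lines, and the sign of the INTS6L difference turned without siCtrl replicate 3 in U2OS and without siCtrl replicate 2 in U2OS-AsiSI. The share of PPP2CB in its pair was not tested because PPP2CA is listed at 0.

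**Figure D4:**
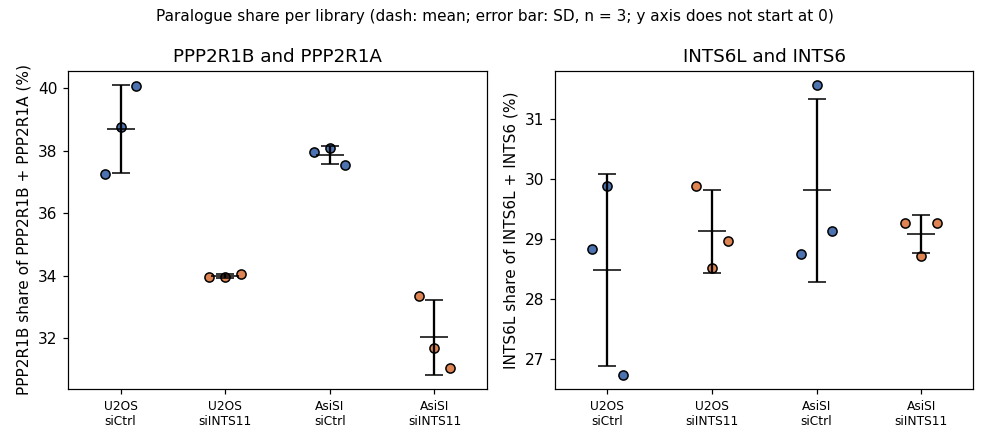
Share of PPP2R1B in the scaffold pair (left) and of INTS6L in the INTS6 pair (right), in percent of reads per kb (y axes, which do not start at 0), for the 4 groups (x axis). Points are libraries, dashes means and error bars SD (n = 3). The siINTS11 libraries lie below the siCtrl libraries for PPP2R1B, from 31.0% to 34.1%, and among them for INTS6L.

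Whether the effect of siINTS11 differed between the lines was tested as an interaction over all 12 libraries. None of the 8 members was called (edgeR, adjusted p from 0.181 to 0.914), where 0.762% of 21521 genes were called higher in U2OS-AsiSI and 3.1% lower. DESeq2 also called 0. The smallest edgeR p-values among the members were those of INTS2 and INTS8. The effect on INTS2 was lower in U2OS-AsiSI by 0.14 on the log2 scale (edgeR adjusted p = 0.181), and that on INTS8 by 0.15 (edgeR adjusted p = 0.235). So the calls of INTS2 and PPP2R1A in U2OS alone are not shown to be differences between the lines. The balance of calls over all genes was not stable: in place of 164 higher and 668 lower, median-of-ratios scaling gave 177 and 270, no count filter 379 and 291, and a filter at a mean of 50 reads 441 and 217. Without U2OS siCtrl replicate 3 the counts were 188 and 163. None of the members was called under any of these settings.

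Under siCtrl, U2OS-AsiSI libraries were compared with U2OS libraries, which also serve as controls in the comparisons above. One member was called higher and 2 lower, against 17.8% and 17.2% of 19935 genes. PPP2CB was higher by 0.18 on the log2 scale (SE 0.043, edgeR adjusted p = 0.00156), INTS6 fell by 0.18 (SE 0.045, edgeR adjusted p = 0.00206) and INTS2 by 0.13 (SE 0.045, adjusted p = 0.0185). All 3 U2OS-AsiSI libraries lay above the U2OS libraries for PPP2CB and below them for INTS6 and INTS2. The INTS2 call was lost without U2OS siCtrl replicate 2 (edgeR adjusted p = 0.0667) or 3 (0.0852), without U2OS-AsiSI siCtrl replicate 2 (0.124) and with library totals alone (0.179). INTS5 gave 0.21 (SE 0.089, edgeR adjusted p = 0.0697), and without U2OS siCtrl replicate 1 it passed at 0.26 (adjusted p = 0.039) and INTS8 at -0.15 (adjusted p = 0.0252), which makes 5 members. Over all genes that run called 3662 higher and 3354 lower of 20309. The scaffolds missed the threshold, with 0.03 (edgeR adjusted p = 0.660) for PPP2R1A and -0.02 (0.739) for PPP2R1B. With library totals alone, 67.4% of calls over all genes were higher, against 50.9% with TMM. That scaling called 2 members higher and 1 lower, beside 4921 and 2376 of 19935 genes.

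Across the 4 groups the order of levels differed by gene. INTS6 and INTS6L were lowest in U2OS-AsiSI with siCtrl and highest in U2OS with siINTS11, and the U2OS siCtrl and U2OS-AsiSI siINTS11 ranges overlapped for INTS6 and not for INTS6L. INTS2 had the same lowest and highest groups, with its 2 U2OS-AsiSI groups overlapping. INTS8 and PPP2R1B were lowest in U2OS-AsiSI with siINTS11 and highest in U2OS with siCtrl, and their siCtrl ranges overlapped between the lines. INTS5 was lowest in U2OS with siCtrl and highest in U2OS-AsiSI with siINTS11. Neighbouring groups overlapped at each step for PPP2R1A, and for PPP2CB only U2OS-AsiSI with siCtrl stood clear of the group below it.

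Over the 12 libraries, the pattern of log2 CPM of each member was set against 13549 genes averaging 100 or more reads. PPP2R1B was most like RFC3 (Pearson r = 0.998), a clamp loader subunit of DNA replication, INTS5 most like ZBTB7A (0.995), a zinc finger repressor, and INTS8 most like COPG2 (0.985), a coat protein of Golgi vesicles. INTS6 was most like SUGT1P1 (r = 0.979), INTS6L like PIR (0.979), INTS2 like ICK (0.973), PPP2CB like PDCD5 (0.959) and PPP2R1A like KRBA1 (0.938). Among the members, INTS6 and INTS6L had r = 0.886, INTS8 and PPP2R1B 0.807, and INTS5 and INTS8 -0.934. The 12 points share 4 group means, each gene named is the highest of many, and these values describe the libraries only.

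Genes around the members were read from lists written with earlier results known. Of 14 other Integrator subunits, 3 were called higher and 6 lower in U2OS (edgeR, median log2 fold change -0.10), against 34.5% and 32.4% of all genes (median 0.02). INTS11, the siRNA target, is 1 of those 6. In U2OS-AsiSI 4 were called higher and 6 lower (median -0.08), against 35.4% and 32.6% of all genes (median 0.03). C7orf26, now named INTS15, rose by 0.49 in U2OS and 0.51 in U2OS-AsiSI, and NABP1, a single-strand DNA binding protein that joins Integrator subunits, by 0.43 and 0.51. INTS13, of the arm that contacts transcription factors, rose by 0.50 in U2OS (SE 0.045) and 0.27 in U2OS-AsiSI (SE 0.051), a difference of -0.26 in the interaction (edgeR adjusted p = 0.0204), the one call on this list there and not called with median-of-ratios scaling. With library totals alone the list median was 0.10 in U2OS and 0.11 in U2OS-AsiSI, beside 0.22 over all genes in each line. That scaling called 8 subunits higher and 1 lower in U2OS, where 10968 of 20687 genes were called higher and 3799 lower. In U2OS-AsiSI it called 7 and 0, beside 10550 and 4024 of 20441 genes. So the sign of the list median depends on the scaling, while the list median lay below that of all genes under both scalings.

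The regulatory subunits direct free PP2A to its substrates. The list of 15 tested also held PTPA, an activator of PP2A and not such a subunit, which was not called with siINTS11 in either line. Of the 15, 1 was called higher and 9 lower in U2OS (edgeR, median log2 fold change -0.18), against 34.5% and 32.4% of all genes (median 0.02). In U2OS-AsiSI 0 were called higher and 8 lower (median -0.12), against 35.4% and 32.6% of all genes (median 0.03). The genes of this and the other lists were not set beside genes of like span, although siINTS11 effects varied with span. PPP2R3A fell by 0.72 in U2OS (SE 0.041, edgeR adjusted p = 2.84e-19) and by 0.74 in U2OS-AsiSI (SE 0.046, edgeR adjusted p = 6.89e-15). PPP2R5C fell by 0.38 and 0.47, and STRN, a striatin that brings kinases to PP2A, by 0.32 and 0.35. With library totals alone these 3 stayed lower in both lines, while the list counts became 5 higher and 7 lower in U2OS and 6 and 5 in U2OS-AsiSI. Over all genes that scaling called 10968 of 20687 higher and 3799 lower in U2OS. In U2OS-AsiSI it called 10550 of 20441 higher and 4024 lower.

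Among 26 tested PP2A assembly factors, inhibitors, related phosphatases and kinases of Pol II, 5 were called higher and 12 lower in U2OS (edgeR, median -0.10) and 7 and 12 in U2OS-AsiSI (median -0.06). The shares over all genes were 34.5% higher and 32.4% lower in U2OS and 35.4% and 32.6% in U2OS-AsiSI, with medians of 0.02 and 0.03. RPAP2, a phosphatase of the Pol II tail, fell by 0.35 in U2OS (SE 0.042, edgeR adjusted p = 1.16e-09) and by 0.41 in U2OS-AsiSI (SE 0.048, edgeR adjusted p = 6.03e-09). PPP1R10, a nuclear partner of the phosphatase PP1, rose by 0.68 in U2OS-AsiSI (SE 0.103, edgeR adjusted p = 8.72e-07), and its effect was larger there than in U2OS by 0.73 (interaction, edgeR adjusted p = 0.00378). TIPRL, a regulator of PP2A-like catalytic subunits, was the other call of this list in the interaction. The siINTS11 effect on it was -0.36 in U2OS-AsiSI and -0.11 in U2OS, a difference of -0.28 (SE 0.077, edgeR adjusted p = 0.0338). That difference missed the threshold with median-of-ratios scaling (adjusted p = 0.0931) and library totals alone (0.0775). Under siCtrl its level was higher in U2OS-AsiSI than in U2OS (log2 fold change 0.21, edgeR adjusted p = 0.00434). PPME1, the methylesterase of the PP2A catalytic subunit, was lower in U2OS-AsiSI than in U2OS under siCtrl (log2 fold change -0.46, SE 0.050, edgeR adjusted p = 3.65e-08). In that comparison 8 of the 26 were called higher and 2 lower, against 17.8% and 17.2% of 19935 genes. For siINTS11 against siCtrl, library totals alone gave 17 of the list higher and 1 lower in U2OS, where 10968 of 20687 genes were called higher and 3799 lower. In U2OS-AsiSI it gave 13 and 4, beside 10550 and 4024 of 20441 genes.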

How the data were processed

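TT-seq libraries of U2OS and U2OS-AsiSI cells were grouped by their titles into 4 groups of 3. The authors deposited raw read counts per gene, laid out as featureCounts does, per the file headers, over spans with introns, and 0 count columns were left without a sample. The submitters' processing notes name Trimmomatic 0.36, STAR 2.7, deepTools, featureCounts and hg38. Strand and overlap settings are not given in the sources used here. From the counts, genes covered by others on their strand were at 0, so shared reads were not assigned and strand was used. Yeast spike-in values were not used here, so a shift in the total output of nascent RNA was not analysed here.

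The tests used edgeR 4.0.16 under R 4.3.3 (filterByExpr, TMM, robust quasi-likelihood fit, two-sided) on the 6 libraries compared, or all 12 for the interaction. Benjamini-Hochberg adjustment ran over all genes tested, at 0.05. DESeq2 1.42.0, other scalings and filters, thinned counts, a replicate block and each library left out were alternatives. Shares were compared by exact permutation with scipy 1.17.1, and the method was tested on simulated data. Replicates differed by more than sampling noise in every group (chi-square per degree of freedom of at least 1.84), and, with no molecular identifiers, reads are not independent molecules. Promoter letters came from a table of RefSeq start sites (GRCh38.p14) in which 6 of the 9 members were matched by symbol. All members were named, INTS11 also, and up to 4 genes per context list and comparison by smallest adjusted p. Members and lists were chosen with earlier results of these data known.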

Additional observations from a re-analysis of the deposited data

How the results depend on the processing

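Of 464 log2 fold changes of single members under alternatives, 434 kept their direction and side of the threshold, 8 lost a call, 8 gained one and 14 changed sign. Scaled by library totals alone, PPP2CB was 0.10 and PPP2R1A 0.13 in U2OS-AsiSI, and INTS8 was 0.024, PPP2CB 0.18 and PPP2R1A 0.088 in U2OS, and PPP2R1B was 0.036 between the lines under siCtrl; that scaling moved the median of all genes as well. The other 8 sign changes were of values that missed the threshold both ways. PPP2CB in U2OS was 0.024 with a filter at a mean of 50 reads and 0.0055 with thinned counts. In the interaction INTS6L was 0.0040 with no count filter and 0.024 with the filter at 50 reads, and PPP2R1B was 0.0075 with that filter. Leaving out 1 library took INTS6L from -0.074 to 0.031 (positive without U2OS siCtrl replicate 3) and PPP2R1A from -0.018 to 0.096 (negative without U2OS siCtrl replicate 1) in the interaction, and PPP2R1B between the lines from -0.029 to 0.00039 (positive without U2OS siCtrl replicate 3). The cause of these changes was not tested. Counts of members called stayed between 5 and 7 in U2OS-AsiSI, 6 and 7 in U2OS and at 0 in the interaction. Over all genes these runs called 5373 to 10550 higher and 4024 to 6900 lower in U2OS-AsiSI, of 15469 to 35120 tested. In U2OS they called 5535 to 10968 higher and 3799 to 6902 lower, of 15732 to 35362 tested. With calls this common, the member counts alone are not a result about the members. Between the lines under siCtrl, leaving out 1 library gave 2 to 5 members. Over all genes those runs called 2775 to 3662 higher and 2566 to 3479 lower, of 20174 to 20322 tested. The PPP2R1B share difference ran from -6.51 to -5.36 points in U2OS-AsiSI and from -5.42 to -4.01 in U2OS without 1 library each. The INTS6L difference ran from -1.26 to 0.14 in U2OS-AsiSI and from -0.23 to 1.33 in U2OS. It reversed at 0.14 without U2OS-AsiSI siCtrl replicate 2 and at -0.23 without U2OS siCtrl replicate 3. Why it reversed was not tested.

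Over all genes, the interaction gave 164 higher and 668 lower, and 246 and 1035 with the replicate block, 177 and 270 with median-of-ratios scaling, 140 and 254 with DESeq2, 115 and 429 with thinned counts, 379 and 291 with no count filter, and 441 and 217 with a filter at a mean of 50 reads. Without 1 library, higher calls ran from 66 to 237 and lower calls from 163 to 709. Higher calls outnumbered lower calls without U2OS siCtrl replicate 3 (188 and 163) and in no other run without 1 library. With the replicate block 6, 7, 0 and 3 members were called in U2OS-AsiSI, in U2OS, in the interaction and between the lines. Over all genes the block called 7351 higher and 6821 lower of 20441 in U2OS-AsiSI, and 7030 and 6670 of 20687 in U2OS. Between the lines it called 3257 and 3164 of 19935. The sixth member in U2OS-AsiSI was PPP2CB (-0.09, edgeR adjusted p = 0.0440). Replicate numbers did not pair the libraries: deviations of same-numbered libraries had correlations from -0.37 to 0.45, and 3 of 18 pairs were above 0.1.

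PPP2CA could not be measured, so its share was not run. Depth limits INTS5 most, at 212 to 366 reads per library.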

Other observations

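INTS6-AS1, annotated on the strand opposite INTS6, was looked at after the INTS6 values were seen. It had 57 to 83 reads per siCtrl library and 76 to 97 per siINTS11 library in U2OS, where the groups overlapped (log2 fold change 0.12, SE 0.146, edgeR adjusted p = 0.478). In U2OS-AsiSI it had 74 to 88 reads with siCtrl and 88 to 103 with siINTS11, and it rose by 0.39 on the log2 scale (SE 0.134, edgeR adjusted p = 0.0115). The interaction of siRNA and line was not called (0.24, edgeR adjusted p = 0.566).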
